A study of Mus musculus with 29 samples.

Results

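The genes described here are 10 components of the protein folding machinery of the endoplasmic reticulum (ER) and of the unfolded protein response (UPR) in mouse liver: Hspa5, Hsp90b1, Dnajb9, Dnajc3, Sdf2l1, Pdia4, Xbp1, Herpud1, Calr and Creld2. They were taken from the deposited read counts by gene symbol, from a list drawn up with earlier results of these data known, and make up 10 of the 55421 genes listed. Each symbol had 1 row, all 10 genes were counted in every mouse, with at least 123 reads, and all 10 passed the filter on low counts in every comparison.

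The ER folds the proteins that a cell secretes or places in its membranes, and the hepatocyte, which makes most plasma proteins, is one of the main secretory cells of the body. When unfolded proteins accumulate in the ER, the membrane sensors IRE1, PERK and ATF6 leave the chaperone BiP and start the UPR, in which IRE1 splices Xbp1 mRNA, ATF6 is cut to release a transcription factor, and PERK lowers translation and raises ATF4. The targets of XBP1 and ATF6 include chaperones, their co-chaperones and the machinery that draws misfolded proteins back into the cytosol for degradation. Counts per gene do not separate spliced from unspliced Xbp1 mRNA, so IRE1 activity was not measured.

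Whole liver was profiled by bulk RNA-seq of polyA RNA in 6 groups of mice, with females and males each given as young vehicle, as old vehicle and as old HDM201. HDM201 is an inhibitor of MDM2, the ubiquitin ligase that holds p53 low, and was given at 10 mg/kg by gavage once a day for 14 days, and the mice were killed in the morning. Vehicle was methylcellulose in phosphate buffer. Per the labels, the old mice were C57BL/6J, aged 20 months (females) or 24 months (males), and the young mice were C57BL6/N aged 5 months, so that age cannot be told apart from substrain. The methods give slightly different ages for the old females and the young mice. Counts were used for 27 mice, namely 5 young vehicle, 4 old vehicle and 5 old HDM201 females, and 4 young vehicle, 4 old vehicle and 5 old HDM201 males. Old vehicle male 1 and young vehicle male 5 have only FPKM values. The labels number the mice within groups, and each was taken as 1 animal.

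Reads counted on genes ranged from 16485900 to 23570458 per mouse with a median of 1.91e+07. The summed level of 10 hepatocyte markers was between 101396 and 184242 CPM (counts scaled to the size of the library) in every mouse, and none of the 10 was at 0 in any group. In a bulk sample, a change in the number of cells of a type and a change in RNA per cell cannot be told apart. Levels below are CPM scaled by TMM over the 27 mice, differences are log2 fold changes from edgeR with their standard error (SE), and adjusted p-values are Benjamini-Hochberg values over all genes tested in that comparison, with 0.05 as the threshold for a call.

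The promoters were read first, because the ER stress response element (ERSE) is the sequence through which ATF6, together with NF-Y, is known to act on this family. The ERSE was searched as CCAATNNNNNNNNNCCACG on both strands of the 250 bases before the RefSeq transcription start (build GRCm38.p6). All 10 genes had such a window. It was present before 5 of the 10 genes, in 6 copies, and in 37 of all 32851 windows, or 0.113%. The related ERSE-II, searched as ATTGGNCCACG, was present before Herpud1 and in 10 of all windows, or 0.0304%. The copies are given on the strand on which they read in this direction, with the element in capitals, so that the spacing of the boxes can be compared.
Hspa5: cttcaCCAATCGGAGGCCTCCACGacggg
Hsp90b1 (distal copy): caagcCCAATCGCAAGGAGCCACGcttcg
Hsp90b1 (proximal copy): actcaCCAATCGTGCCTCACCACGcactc
Dnajc3: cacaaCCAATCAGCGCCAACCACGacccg
Calr: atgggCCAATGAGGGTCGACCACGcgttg
Creld2: gtggaCCAATTGAGGCTCGCCACGagaag
Herpud1 (ERSE-II): cgggcgctgATTGGGCCACGttggacact

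Each run of 29 bases was placed on GRCm38.p6. The Hspa5 run is chr2:34772020-34772048 on the plus strand, with the ERSE 65 to 47 bases before the start. The Hsp90b1 runs are chr10:86705633-86705661 on the minus strand (ERSE 212 to 194 bases before the start) and chr10:86705528-86705556 on the plus strand (107 to 89 bases before it). The Dnajc3 run is chr14:118937822-118937850 on the plus strand (105 to 87 bases before the start), and the Calr run is chr8:84847070-84847098, also plus (162 to 144 bases). The Creld2 run is chr15:88819515-88819543 on the minus strand (126 to 108 bases before the start). The Herpud1 run is chr8:94386368-94386396 on the plus strand, with the ERSE-II 52 to 42 bases before the start. In the GENCODE M21 annotation (mm10) the genes are Hspa5 (ENSMUSG00000026864.13) at chr2:34771970-34777547, Hsp90b1 (ENSMUSG00000020048.13) at chr10:86690209-86705509, Dnajb9 (ENSMUSG00000014905.4) at chr12:44205559-44210326, Dnajc3 (ENSMUSG00000022136.8) at chr14:118937976-118981697 and Sdf2l1 (ENSMUSG00000022769.9) at chr16:17130138-17132383. The others are Pdia4 (ENSMUSG00000025823.9) at chr6:47796141-47813430, Xbp1 (ENSMUSG00000020484.19) at chr11:5520659-5525893, Herpud1 (ENSMUSG00000031770.16) at chr8:94386438-94395377, Calr (ENSMUSG00000003814.8) at chr8:84841850-84846934 and Creld2 (ENSMUSG00000023272.4) at chr15:88819646-88826683. Hsp90b1, Dnajb9, Sdf2l1, Pdia4 and Calr lie on the minus strand. Other annotated genes overlap Hsp90b1 (1810014B01Rik, Gm15344 and Gm25745), Dnajb9 (Mir5627), Pdia4 (Mir704) and Herpud1 (Gm15890), and their reads could not be told apart here. No exon overlaps the promoter runs except that of Hspa5, which lies in the first exon of the transcript Hspa5-201, since GENCODE starts that transcript upstream of the RefSeq start. The searched window of Dnajb9, chr12:44210069-44210318, lies wholly within its GENCODE gene, which also starts upstream of the RefSeq start.

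The 2 boxes of the ERSE are common alone. CCAAT was found in 33.85% of all windows and before 9 of the 10 genes, and CCACG in 28.3% of windows and before 8 of them, counts that include the boxes inside the ERSE and ERSE-II. The core of the UPR element, TGACGTGG, was in 0.563% of windows and in none of the 10. The C/EBP-ATF element bound by CHOP and ATF4, searched as TGATGNAA, was in 3.45% of windows and before Herpud1, 112 to 105 bases before its start. No match was found in the windows of Xbp1 for any of these 6 patterns. A match is a description of the letters in this window and not a measurement of binding.

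**Figure D1:**
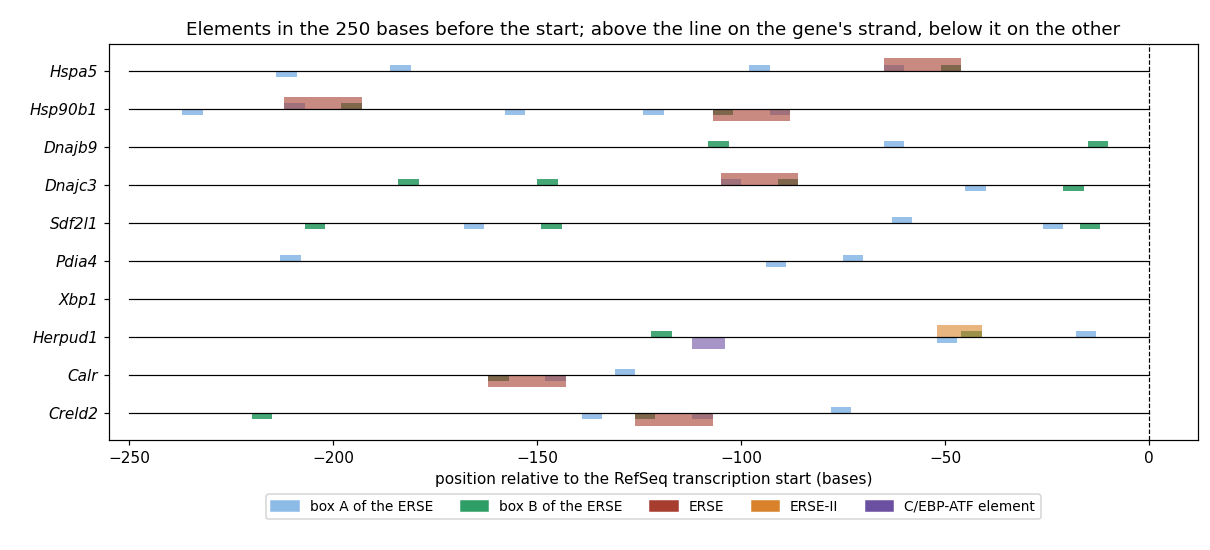
Positions of the searched elements in the 250 bases before the RefSeq start of each gene; the horizontal axis is the distance from the start in bases, boxes above a line lie on the strand of the gene and boxes below it on the other. ERSE copies (red) lie before Hspa5, Hsp90b1 (2 copies), Dnajc3, Calr and Creld2, the ERSE-II (orange) before Herpud1, and box A and box B are the CCAAT and CCACG of the ERSE wherever they occur.

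Divided by exon length, the level over 27 mice was highest for Calr, at 256 ± 70.1 CPM per kb (SD, n = 27), and lowest for Creld2, at 17.6 ± 9.56. Calr encodes calreticulin, a lectin chaperone that also stores calcium in the ER. Between them, in falling order of mean CPM per kb, came Herpud1 (213), Hsp90b1 (153), Hspa5 (133), Pdia4 (79.4), Xbp1 (65.8), Dnajc3 (43.1), Sdf2l1 (22.6) and Dnajb9 (19.2). The highest of them stood at percentile 98.7 and the lowest at percentile 86.4 on this scale, among the genes that passed the filter on low counts over all 6 groups. Several neighbours in this order changed places between mice: Calr was above Herpud1 in 19 of 27 mice, Pdia4 above Xbp1 in 17, Sdf2l1 above Dnajb9 in 14 and Dnajb9 above Creld2 in 17. By contrast Hspa5 was above Pdia4 in 27 of 27. Over the same 27 mice, the mean FPKM values of the authors put Hspa5 (201) just above Hsp90b1 (199), and Xbp1 (103) above Pdia4 (74.5), and kept the other places.

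The spread between mice differed widely from gene to gene. The highest mouse was 8.32 times the lowest for Sdf2l1 and 6.56 times for Creld2, against 1.85 times for Xbp1 and 1.94 times for Dnajb9. The other 6 genes ranged from 2.24 to 3.35 times. Thus the scarce co-chaperone Sdf2l1 and the scarce Creld2 varied most, and the transcript of the transcription factor Xbp1 varied least.

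**Figure D2:**
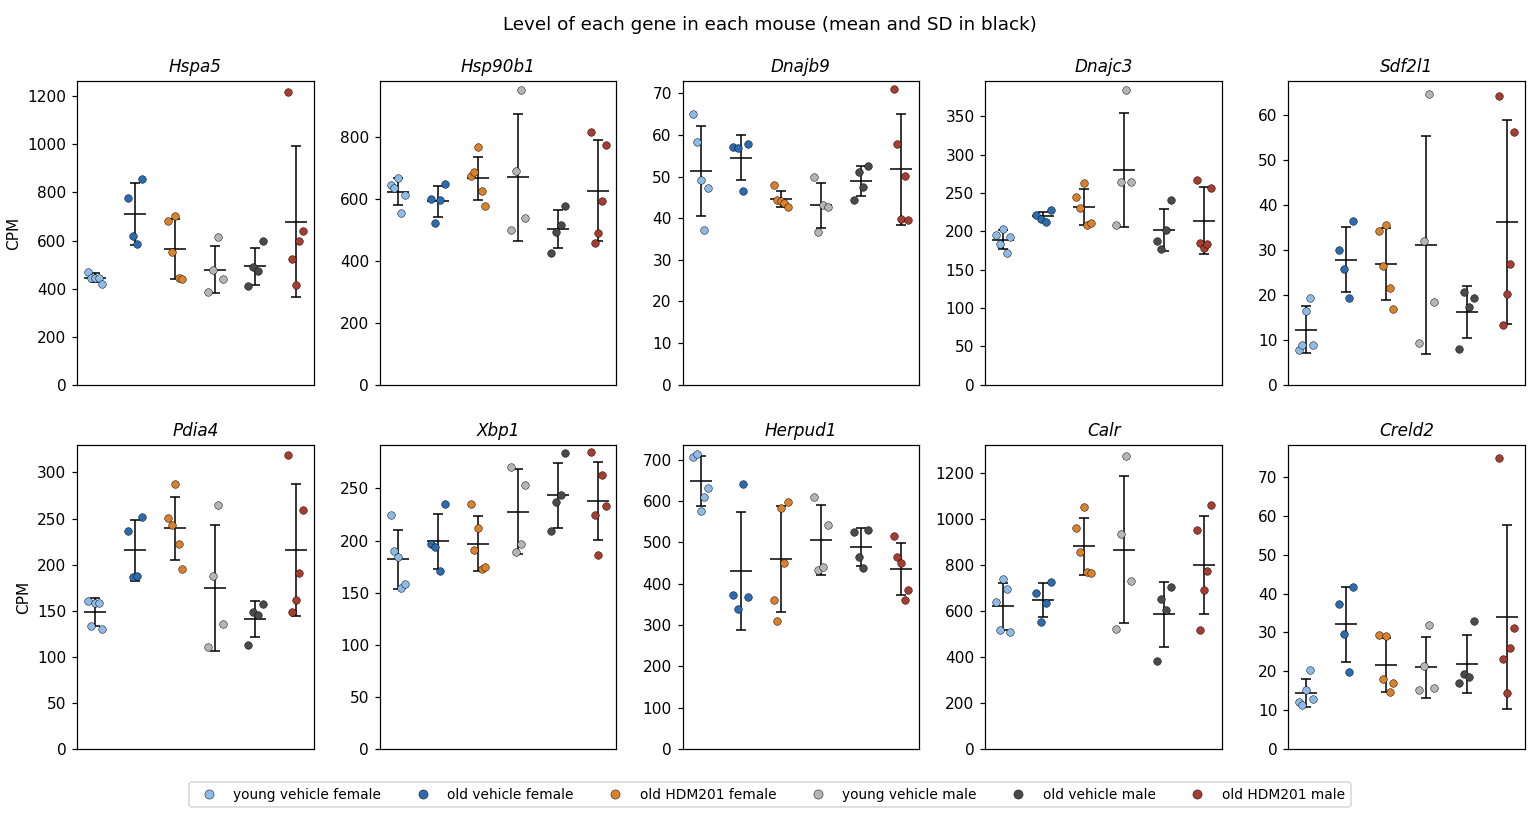
Level of the 10 genes in each of 27 mice in CPM (vertical axes from 0, with a separate scale for each gene); each point is 1 mouse, the short bar is the group mean and the whiskers its SD. Young vehicle females lie close together for Hspa5 (421 to 471 CPM) and below all old vehicle females, whereas 1 old HDM201 male stands at 1219 CPM.

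The first question was whether the age groups differ under vehicle. In females, 6 of the 10 genes passed the test, 5 higher and 1 lower in the old mice, where 31.8% of all 14233 genes tested passed it (16.8% higher, 15% lower). The 5 that rose were the chaperone Hspa5, the disulfide isomerase Pdia4, the BiP co-chaperones Dnajc3 and Sdf2l1, and Creld2, and the 1 that fell was Herpud1. The median log2 difference of the 10 was 0.19, beside 0.01 over all genes tested, and 8 of 10 were above 0.

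Hspa5 encodes BiP, the Hsp70 chaperone of the ER lumen and the protein that leaves the UPR sensors under stress. Its levels in the young vehicle females were 471, 445, 444, 444 and 421 CPM, and in the old vehicle females 775, 618, 587 and 857 CPM. The groups did not overlap, and the lowest old female exceeded the highest young one by more than the whole range of the young group. The difference was 0.70 on the log2 scale (SE 0.11, adjusted p = 0.000694), or 1.62-fold.

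Pdia4, which forms and rearranges disulfide bonds in folding clients, was at 161, 134, 159, 158 and 130.5 CPM in the young females and at 236, 186, 188 and 251 CPM in the old females. These groups did not overlap either. Old exceeded young by 0.56 on the log2 scale (SE 0.11, adjusted p = 0.00241).

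Dnajc3 (p58IPK), a co-chaperone of BiP that is also known to restrain PERK, rose least. It was at 196, 183, 203, 171 and 193 CPM in the young and at 221, 217, 213 and 227 CPM in the old females, again without overlap. The log2 difference was 0.24 (SE 0.07, adjusted p = 0.0280). The call was lost in 8 of 16 alternatives, with an adjusted p of up to 0.0789 when 1 mouse was left out and 0.247 with all 6 groups in the fit. Non-overlap of the groups in CPM, seen for these 3 genes, was found for 25.9% of all genes tested in this comparison.

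Sdf2l1, a component of BiP complexes that acts with the co-chaperone Dnajb11, was low and variable in the young females, at 7.75, 8.87, 16.4, 19.3 and 8.78 CPM. In the old females it was at 30.0, 25.6, 19.3 and 36.3 CPM, so that the lowest old mouse stood at the level of the highest young mouse. This gave a log2 difference of 1.21 (SE 0.26, adjusted p = 0.00422), or 2.32-fold.

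Creld2, an ER-resident protein that is strongly induced by ER stress, also rose. Young females were at 12.1, 11.4, 15.1, 20.2 and 12.8 CPM and old females at 37.4, 29.6, 19.8 and 41.7 CPM, with old female 3 inside the young range. The log2 difference was 1.19 (SE 0.21, adjusted p = 0.00122), or 2.28-fold.

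Herpud1, a membrane protein that organises the ERAD ubiquitin ligase complex and is a known target of both ATF6 and ATF4, moved the other way. It was at 707, 714, 575, 611 and 633 CPM in the young females and at 372, 339.8, 643 and 368 CPM in the old. Thus 3 of the 4 old females were below every young female, and old female 3 lay within the young range. The log2 difference was -0.57 (SE 0.17, adjusted p = 0.0207), -0.82 without old vehicle female 3 (adjusted p = 0.000217), and the call was lost when any 1 of the other 3 old females was left out (adjusted p up to 0.0685).

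The remaining 4 genes did not pass the test in this comparison. Xbp1 was at 182 ± 28.4 CPM in the young (SD, n = 5) and 199 ± 26.4 in the old females (n = 4), with a log2 difference of 0.15 (SE 0.12). The abundant chaperones Hsp90b1 (GRP94) and Calr differed by -0.05 (SE 0.09) and 0.08 (SE 0.12). Dnajb9 (ERdj4), a co-chaperone that directs BiP to IRE1 and to ERAD clients, differed by 0.11 (SE 0.14). The value of Dnajc3, 0.24, lay within an SE of those of Xbp1 and Dnajb9.

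**Figure D3:**
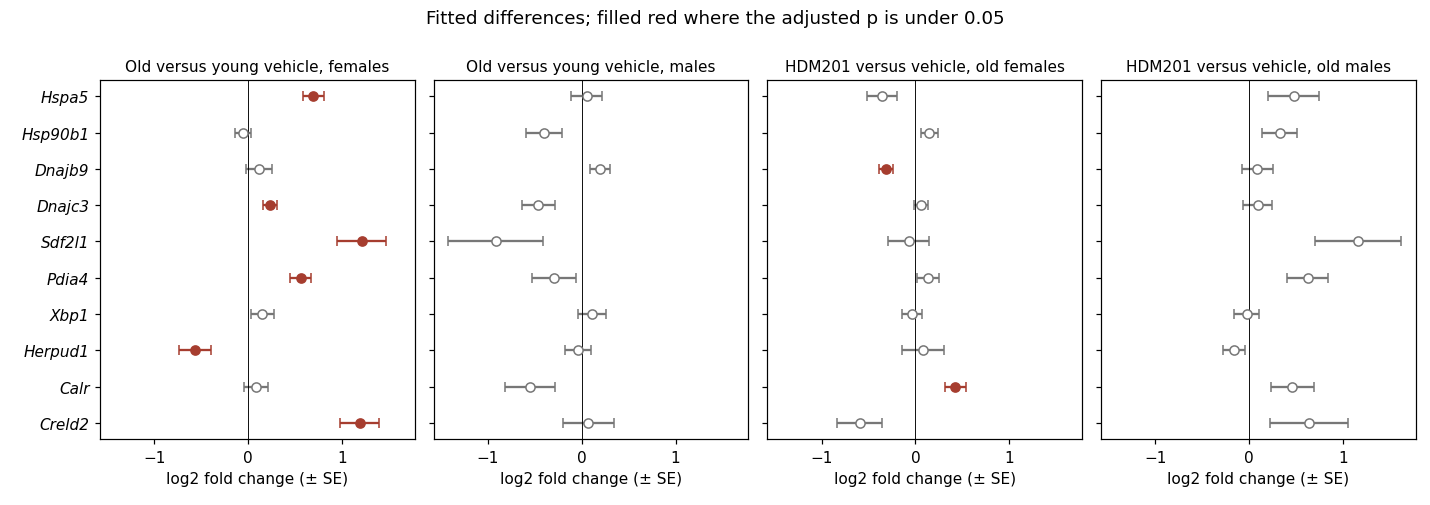
Log2 fold change (horizontal axis, dimensionless, with SE as whiskers) of the 10 genes in 4 comparisons fitted separately; filled red points have an adjusted p under 0.05. Calls were made for 6 genes with age in females (Sdf2l1 at 1.21 and Creld2 at 1.19 being farthest to the right, Herpud1 at -0.57 to the left) and for Dnajb9 and Calr with HDM201 in females, and for none in males.

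Other lists of the pathway were counted in the same comparison, where 31.8% of all genes were called, 16.8% higher and 15% lower. Of 20 other ER chaperones and folding enzymes, 6 rose and 1 fell. Only with both directions pooled was this near the share of all genes. In this list 75% of genes were above 0, beside 51.0% of all genes, and the median was 0.07, beside 0.01 over all genes. Hyou1, the large Hsp70-like nucleotide exchange factor of BiP, went from 77.8 ± 6.74 CPM (SD, n = 5) in young to 206 ± 54.7 CPM (n = 4) in old females, a log2 difference of 1.43 (SE 0.15, adjusted p = 6.12e-05). Txndc5, a disulfide isomerase, rose by 0.51 on the log2 scale (SE 0.08, adjusted p = 0.000642). Manf, a secreted ER stress protein, rose by 0.83 (SE 0.16, adjusted p = 0.00239). Among the 17 tested genes of ER-associated degradation, 4 rose and 1 fell, again near the share of all genes only with both directions pooled. Of this list 70.6% were above 0. The ligase Syvn1 (HRD1) rose by 0.66 (SE 0.12, adjusted p = 0.00201), its partner Sel1l by 0.41 (SE 0.09, adjusted p = 0.00389), and Derl2 had a log2 difference of -0.38 (SE 0.08, adjusted p = 0.00482).

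The 9 sensors and transcription factors of the UPR also had a share of calls near 31.8%, with 2 higher and 1 lower. Atf6b, an ATF6 paralogue (0.58, SE 0.11, adjusted p = 0.00189), and Creb3l2, an ER-membrane transcription factor (0.46, SE 0.15, adjusted p = 0.0331), rose. Mbtps2, the site-2 protease that cuts ATF6, had a difference of -0.58 (SE 0.12, adjusted p = 0.00319). Of 16 PERK and ATF4 targets, 7 rose and 1 fell, with a list median of 0.34. They included the lipoprotein receptor Vldlr (0.71, SE 0.09, adjusted p = 0.000246), the amino acid transporter chain Slc3a2 (0.44, SE 0.07, adjusted p = 0.000725) and Trib3, the pseudokinase that ATF4 and CHOP induce, which fell (-1.95, SE 0.34, adjusted p = 0.00127). The 21 genes of the translocon and signal peptide machinery were split, with 3 higher and 4 lower, near the share of all genes, and a median of -0.03. The 3 with the smallest adjusted p were the channel subunit Sec61g (-0.44, SE 0.10, adjusted p = 0.00638), the signal peptidase subunit Spcs2 (0.31, SE 0.08, adjusted p = 0.01002) and the signal recognition particle subunit Srp68 (0.32, SE 0.09, adjusted p = 0.0150).

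Heat shock genes outside the ER also moved. Of 14, 6 rose and 3 fell, with a median of 0.22. The co-chaperone Bag3 rose by 1.19 on the log2 scale (SE 0.11, adjusted p = 2.95e-05) and cytosolic Hsp90aa1 by 0.88 (SE 0.14, adjusted p = 0.000844). The 3 that fell were those of the mitochondrial folding system, Hspe1 (-0.48, SE 0.08, adjusted p = 0.00100), Hspd1 and Hspa9.

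**Figure D4:**
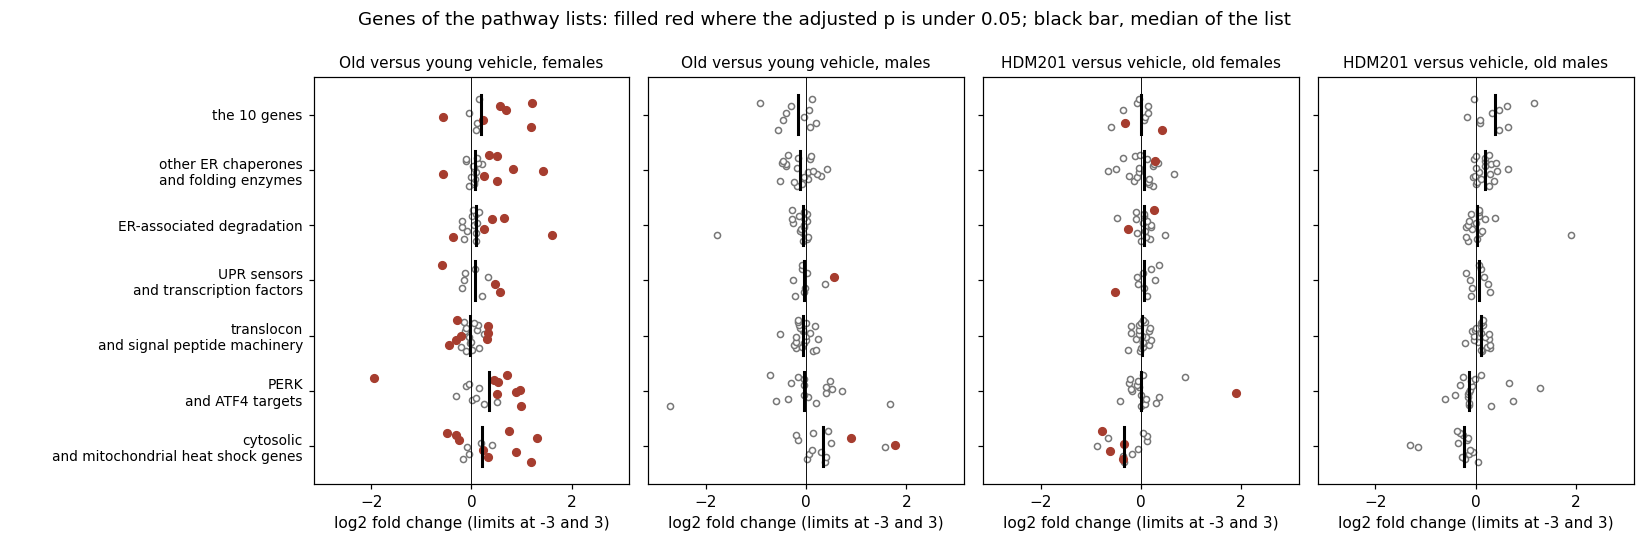
Log2 fold change (horizontal axis, dimensionless) of every tested gene of the 10 and of 6 pathway lists in 4 comparisons; each point is 1 gene, filled red where its adjusted p is under 0.05, and the black bar is the list median. With age in females, calls appear in every list, and in males with HDM201 no gene of any list is called although the median of the 10 genes lies at 0.40.

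Other lists moved with age in females as well. Of 13 tested B and plasma cell markers, 12 rose, and their summed level (14 genes) was 223 to 292 CPM in young and 586 to 645 CPM in old females. Sdc1 was the largest part of these sums, with a mean of 237 CPM in young and 403 CPM in old females. In bulk RNA, the cells that these Sdc1 reads came from, here and in the groups below, could not be told. Next came Ighm at 14.4 and 125 CPM and Igkc at 3.34 and 46.2 CPM. Jchain was at 1.31 and 11.4 CPM and Mzb1 at 0.527 and 0.492 CPM. Plasma cells are secretory cells known for high levels of ER chaperones. Of 12 macrophage and monocyte markers 11 rose, with sums of 185 to 285 CPM in young and 305 to 658 CPM in old females. Pancreatic acinar markers, the other secretory cell checked, summed to 20.1 CPM at most in any mouse of these 2 groups, with 10 of 14 at 0 in every mouse of each group, among them Clps, Pnlip and Cpa1, and both tested markers fell. Circadian clock genes differed, with 3 of 12 higher (Cry1, Npas2 and Arntl) and 5 lower (Ciart, Dbp, Nr1d2, Per3 and Tef). Their sums were 693 to 1130 CPM in young and 333 to 661 CPM in old females. Old female 3, with Herpud1 in the young range and the lowest Hspa5, Sdf2l1 and Creld2 of its group, had the highest clock sum of its group, 661 CPM. In fasting and feeding genes 2 of 12 rose and 3 fell. The part of these cell types and timing genes in the results was not tested.

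In males, none of the 10 genes passed the edgeR test between old and young vehicle mice, where 3.69% of 13755 genes were called and 3007 genes had an unadjusted p under 0.05. At that unadjusted level stood 1 of the 10, Dnajc3. DESeq2 called none of the 10. The median log2 difference of the 10 was -0.17, beside -0.01 over all genes, and 4 of 10 were above 0. Hspa5 was at 385, 476, 615 and 438 CPM in young vehicle males and at 411, 489, 472 and 596 CPM in old vehicle males. These 4 old males lay inside the range of the 4 young, and the log2 difference was 0.05 (SE 0.16). Old vehicle male 1, without counts, was at 235 FPKM. The young males were at 124 to 195 FPKM, with young vehicle male 5 at 224.

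The young males were uneven. Sdf2l1 was at 9.31, 31.8, 64.5 and 18.5 CPM in the young vehicle males and at 7.87, 20.7, 17.2 and 19.3 CPM in the old vehicle males. Young male 3 had the highest Sdf2l1, Hsp90b1, Calr and Dnajc3 of all 27 mice, and young male 1 the lowest level of its group for 7 of the 10 genes. The log2 difference of Sdf2l1 was -0.92 (SE 0.51), and -0.28 without young male 3. For Dnajc3, at 208, 264, 385 and 264 CPM in the young and 187, 177, 202 and 241 CPM in the old males, the log2 difference was -0.46 (SE 0.18, adjusted p = 0.164), -0.27 without young male 3, and it passed the test with all 6 groups in the fit (adjusted p = 0.0344). Among the pathway lists, the PERK kinase Eif2ak3 rose from 10.7 ± 1.11 to 15.4 ± 0.908 CPM (SD, n = 4 each), a log2 difference of 0.55 (SE 0.11, adjusted p = 0.0251). The heat shock genes Hspb1 (0.89, SE 0.18, adjusted p = 0.0260) and Hspa1b (1.76, SE 0.42, adjusted p = 0.0496) rose too. No gene of the other 4 lists was called. Immune markers rose in the males as well. Of 11 tested B and plasma cell markers 7 rose, with a median of 2.15 and sums of 195 to 462 CPM in young and 325 to 564 CPM in old males. Sdc1 was again the largest part of these sums, with a mean of 281 CPM in young and 228 CPM in old males. Of 11 macrophage and monocyte markers 3 rose, with a median of 1.01 and sums of 90.2 to 175 CPM in young and 135 to 398 CPM in old males. The part of these cell types in the male results was not tested.

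Whether the age difference itself differs between the sexes was tested as an interaction over the 17 vehicle mice. By their labels the old males were older than the old females, while the young mice of both sexes had the same age. Sex therefore cannot be told apart from the wider age gap of the males in this test. Of the 10 genes, 1 was called, beside 3.92% of all 14721 genes tested. That gene was Dnajc3, whose age difference was greater in females by 0.71 on the log2 scale (SE 0.19, adjusted p = 0.0458). Next came Sdf2l1 (2.14, SE 0.61, adjusted p = 0.0559), Hspa5 (0.66, SE 0.20, adjusted p = 0.0673), Pdia4 (0.87, SE 0.27, adjusted p = 0.0750) and Creld2 (1.13, SE 0.37, adjusted p = 0.0877). These 4 did not pass the edgeR threshold. DESeq2 called all 5, and so did edgeR without young vehicle male 1. The count ran from 0 to 5 when 1 mouse was left out. The call of Dnajc3 was lost without any 1 of most mice, with an adjusted p between 0.00902 and 0.0886.

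Other genes of the pathway were called in the same interaction. Of the other ER chaperones, 3 of 20 were called, all with a greater difference in females, namely Hyou1 (1.31, SE 0.30, adjusted p = 0.0250), the glycoprotein folding sensor Uggt1 (0.72, SE 0.17, adjusted p = 0.0262) and Dnajb11 (1.04, SE 0.28, adjusted p = 0.0425). Sel1l (0.70, SE 0.15, adjusted p = 0.0189), Syvn1 (0.70, SE 0.19, adjusted p = 0.0446) and Atf6b (0.62, SE 0.16, adjusted p = 0.0346) were called in the same direction, as were Vldlr and Slc3a2. Among heat shock genes Bag3 was greater in females (0.82, SE 0.20, adjusted p = 0.0321) and Hspe1 lower (-0.60, SE 0.13, adjusted p = 0.0197). The median of the 10 genes was 0.65, beside 0.00 over all genes.

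Young females and young males of the same labelled age and strain were compared next. Of the 10 genes 1 was called, beside 10.5% of all 13875 genes tested, and 2 of 10 were above 0, with a median log2 difference of -0.29 (female minus male). Dnajc3 was lower in every female than in any male, 171 to 203 CPM against 208 to 385 CPM in males, with a log2 difference of -0.58 (SE 0.15, adjusted p = 0.0303). The value was -0.38 without young male 3 and the call was then lost. Without young male 1 a total of 4 genes were called. Of the other ER chaperones 4 of 20 were lower in females and none higher, among them Fkbp11, a prolyl isomerase (-0.83, SE 0.15, adjusted p = 0.00548), Uggt1 (-0.50, SE 0.12, adjusted p = 0.0247) and Dnajb11 (-0.75, SE 0.20, adjusted p = 0.0338). In degradation, Nploc4, Derl3 and Edem3 were lower in females, with Derl3 at 0.457 ± 0.281 CPM in females (SD, n = 5) and 4.90 ± 4.93 CPM in males (n = 4). Other lists held genes higher in females. Of 17 PERK and ATF4 targets 3 were higher, Vldlr (1.68, SE 0.20, adjusted p = 0.000309), Cebpb (0.87, SE 0.20, adjusted p = 0.0163) and Trib3, and 1 was lower, the asparagine synthetase gene Asns, at 0.279 ± 0.149 CPM in females and 23.9 ± 23.8 CPM in males. Of the sensors, Creb3l2 was higher (0.61, SE 0.16, adjusted p = 0.0349) and Atf6 lower (-0.43, SE 0.11, adjusted p = 0.0278). No translocon or heat shock gene was called. Of 10 tested macrophage and monocyte markers 6 were higher in females and none lower, and their part in the results was not tested.

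The second question was the effect of HDM201 in old mice. In females, 2 of the 10 genes passed the test, 1 higher and 1 lower, where 5.25% of 14445 genes passed it (2.35% higher, 2.9% lower). Calr rose and Dnajb9 fell. The median log2 difference of the 10 was 0.01, beside 0.00 over all genes tested, and 5 of 10 were above 0. DESeq2 called both genes too. Both calls were lost with all 6 groups in the fit and on FPKM, that of Calr without any 1 of 8 of the 9 mice and that of Dnajb9 without any 1 of 7.

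Calr was at 677, 553, 634 and 725 CPM in the old vehicle females and at 962, 857, 1053, 768 and 766 CPM in the old HDM201 females. The groups did not overlap, as for 10.2% of all genes tested. The log2 difference was 0.43 (SE 0.11, adjusted p = 0.0470), or 1.34-fold, and omitting single mice kept it between 0.36 and 0.49, with adjusted p-values from 0.0458 to 0.147. Young vehicle females, at 509 to 739 CPM, overlapped the old vehicle females.

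Dnajb9 was at 57.1, 56.7, 46.6 and 57.8 CPM in the old vehicle females and at 47.9, 44.3, 44.1, 43.7 and 42.7 CPM with HDM201. Of the 5 treated mice 4 were below every vehicle mouse, and old vehicle female 3 lay within the treated range. Treated minus vehicle was -0.31 on the log2 scale (SE 0.08, adjusted p = 0.0380), and -0.38 without old vehicle female 3 (adjusted p = 0.0104). Leaving out other mice gave adjusted p-values up to 0.114.

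The 5 genes that rose with age in females were not called with HDM201. This comparison shares its old vehicle females with the comparison of age, so the values are given side by side. Hspa5 was at 445 ± 17.8 CPM in young vehicle (SD, n = 5), 709 ± 128 in old vehicle (n = 4) and 564 ± 125 in old HDM201 females (n = 5). Of the 5 treated mice, those at 445 and 442 CPM lay in the range of the young vehicle females. Those at 681 and 703 CPM lay in that of the old vehicle females, and that at 552 CPM lay between the ranges. The log2 difference of Hspa5 from vehicle was -0.35 (SE 0.16, adjusted p = 0.221). Creld2 stood at 14.3 ± 3.58, 32.1 ± 9.63 and 21.7 ± 7.002 CPM in the same order, a log2 difference of -0.59 (SE 0.24, adjusted p = 0.167). Pdia4 did not share this order. It was at 148 ± 15.01, 215 ± 33.4 and 240 ± 34.2 CPM, and Sdf2l1 at 12.2 ± 5.27, 27.8 ± 7.18 and 26.9 ± 7.98 CPM. Herpud1, lower with age, was at 361, 311, 583, 449 and 598 CPM in the treated females. Of these, 2 lay within the young range of 575 to 714 CPM and 3 below it, and 4 of the 5 young females were above every treated mouse. The difference from vehicle on the log2 scale was 0.08 (SE 0.22). Xbp1 differed by -0.04 (SE 0.11), Dnajc3 by 0.06 (SE 0.08) and Hsp90b1 by 0.15 (SE 0.09).

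The pathway lists held few calls with HDM201 in females. Of the other ER chaperones, Ppib, the ER prolyl isomerase cyclophilin B, rose from 113 ± 7.66 to 138 ± 8.01 CPM, by 0.27 on the log2 scale (SE 0.07, adjusted p = 0.0377). Of the degradation genes, the segregase Vcp rose (0.25, SE 0.06, adjusted p = 0.0416) and the mannosidase Edem3 fell (-0.27, SE 0.07, adjusted p = 0.0469). Atf6b fell (-0.51, SE 0.13, adjusted p = 0.0443), and the hormone gene Fgf21, an ATF4 target, rose from 1.78 ± 0.378 to 6.66 ± 4.56 CPM (1.90, SE 0.50, adjusted p = 0.0491). Of 13 heat shock genes 4 fell and none rose, with a median of -0.34, namely Hsph1 (-0.77, SE 0.15, adjusted p = 0.0184), Hsp90aa1 (-0.61, SE 0.14, adjusted p = 0.0343), Dnaja1 (-0.36, SE 0.09, adjusted p = 0.0381) and Hspa8. No translocon gene was called. In the same mice 7 of 12 macrophage and monocyte markers fell, with sums of 204 to 320 CPM with HDM201 and 305 to 658 CPM with vehicle. Of 13 B and plasma cell markers 1 fell, with sums of 374 to 600 against 586 to 645 CPM. Sdc1 was the largest part of the latter sums, with means of 346 CPM with HDM201 and 403 CPM with vehicle. The part of these cell markers in the results was not tested.

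In males, HDM201 gave no call among the 10 genes by edgeR or DESeq2, where 1 gene of 14109, or 0.00709%, was called in all and 1710 had an unadjusted p under 0.05. At that unadjusted level stood 2 of the 10, Pdia4 and Sdf2l1. The median log2 difference of the 10 was 0.40, beside 0.01 over all genes tested, and 8 of 10 were above 0. Pdia4 was at 113, 148, 145 and 157 CPM in the old vehicle males and at 319, 149, 161, 191 and 259 CPM with HDM201. Thus 4 of the 5 treated males exceeded all 4 vehicle males with counts. Old vehicle male 1, without counts, stood above those 4 in FPKM, at 74.5 against 43.5 to 56.7. The log2 difference of Pdia4 was 0.63 (SE 0.22, adjusted p = 0.324). Sdf2l1 was at 7.87, 20.7, 17.2 and 19.3 CPM with vehicle and at 64.2, 13.4, 20.2, 26.7 and 56.1 CPM with HDM201, a log2 difference of 1.17 (SE 0.46, adjusted p = 0.362).

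For Hspa5 and Creld2 much of this rested on 1 mouse. Hspa5 was at 1219, 521, 413, 600.0 and 640 CPM in the HDM201 males, against 411 to 596 CPM with vehicle, and Creld2 at 75.0, 23.1, 14.3, 26.1 and 31.2 CPM, against 17.0 to 33.0 CPM. Without HDM201 male 1 the log2 difference of Hspa5 went from 0.48 to 0.15 and that of Creld2 from 0.64 to 0.12, and that of Pdia4 from 0.63 to 0.44. That mouse also had the highest sum of B and plasma cell markers of all mice, 976 CPM, where the other HDM201 males had 628 to 734 CPM and the old vehicle males 325 to 564 CPM. A few genes made up most of these sums. Over the HDM201 males, Sdc1 ran from 231 to 316 CPM, Ighm from 89.1 to 311 CPM and Igkc from 98.7 to 230 CPM. Ighg2b ran from 6.96 to 320 CPM, with a mean of 78.2 beside 144 for Igkc. All 13 tested markers of that list were above 0 in this comparison with none called. Their part in the result was not tested. Of the pathway lists, the other ER chaperones had 17 of 20 genes above 0 and a median of 0.19, the translocon genes 16 of 21 and 0.11, and the heat shock genes 1 of 14 and -0.24, with no gene called in any list.

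Whether the effect of HDM201 differs between the sexes was tested over the 18 old mice. Here too sex cannot be told apart from the greater labelled age of the old males. None of the 10 genes was called by edgeR or DESeq2, where 0.107% of 14974 genes were called and 2774 had an unadjusted p under 0.05. At that unadjusted level were Hspa5 (-0.82, SE 0.34, adjusted p = 0.211), Creld2 (-1.22, SE 0.52, adjusted p = 0.222) and Sdf2l1 (-1.23, SE 0.54, adjusted p = 0.235), where a negative value means a lower HDM201 difference in females. Without old HDM201 male 1 these became -0.49 for Hspa5, -0.70 for Creld2 and -0.91 for Sdf2l1. Only Herpud1 of the 10 was above 0.

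Apart from Herpud1, Dnajb9 and Xbp1, the genes moved together from mouse to mouse. Over the 45 gene pairs, the correlation of log2 levels across the 27 mice had a median of 0.44 and ran from -0.59 to 0.93. With the group means removed, the median was 0.54 and the range -0.39 to 0.93, so the shared movement was also present within groups. The closest pair was Hspa5 with Creld2 (r = 0.93), followed by Sdf2l1 with Pdia4 (r = 0.88). These points share libraries and depth, and the values are a description. Herpud1 stood apart, with a median correlation of -0.33 with the other 9, and Dnajb9 and Xbp1 were loosely tied to the rest, with medians of 0.06 and 0.19 and with each other at 0.45.

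**Figure D5:**
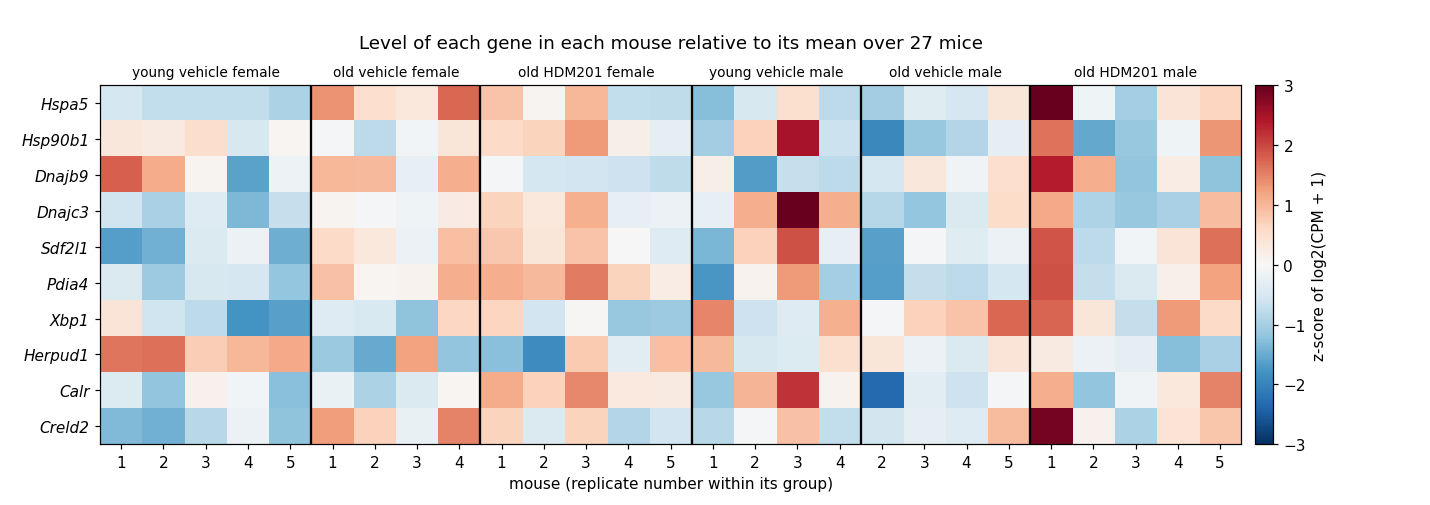
Level of each gene (rows) in each of 27 mice (columns, by group and replicate number) as a z-score of log2(CPM + 1) over all mice; red is above and blue below the mean of the gene. Old HDM201 male 1 and young vehicle male 3 are red for most genes, old vehicle male 2 is mostly blue, and Herpud1 is red in the 5 young vehicle females while Hspa5 and Creld2 are blue.

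The mean z-score over the 10 genes ranked old HDM201 male 1 the highest of 27 mice (1.79), followed by young vehicle male 3 (1.09) and old HDM201 female 3 (0.81), and old vehicle male 2 the lowest (-1.02). Old HDM201 male 1 was the highest of all mice for 5 genes and young vehicle male 3 for 4, while the remaining 1, Herpud1, was highest in a young vehicle female. These mice therefore come from different groups. Young female 5, with -0.73, and HDM201 male 3, with -0.71, were also near the bottom.

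Among 15211 genes outside the set, the 5 whose log2 level was most like this mean score over the 27 mice were Dnajb11 (r = 0.88), the ER nucleotide transporter gene Slc35b1 (r = 0.82), the disulfide isomerase Pdia3 (r = 0.81), Uggt1 (r = 0.81) and Hyou1 (r = 0.81). Of these, 4 stand in the list of other ER chaperones, and Slc35b1 is in no list used here. With the group means removed their correlations were 0.82 to 0.92, again as a description.

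The mice with FPKM but no counts bear on the male groups. Old vehicle male 1 was above all 4 other old vehicle males for 8 of the 10 genes in FPKM, below them for Herpud1 and inside their range for Dnajc3. Its Hspa5 was at 235 FPKM against 143 to 202 and its Sdf2l1 at 34.1 FPKM against 7.52 to 20.7. Young vehicle male 5 was above the other young males for 4 genes and inside their range for 5. Its Herpud1 was at 67.1 FPKM against 206 to 289, far below them. Per the methods, 1 young male was left out of the authors' data for an open wound and a suspected infection. Whether young vehicle male 5 is that animal is not stated. With old vehicle male 1 and young vehicle male 5 included in a fit of log2(FPKM + 1) by limma, none of the 10 genes was called in males for age or HDM201. In that fit the log2 difference of Sdf2l1 with HDM201 was 0.88 and that of Hspa5 0.38.

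The ERSE and ERSE-II were also followed beyond the 10 genes. In all, 45 genes had 1 of these elements in a window, and 39 of them were outside the set. Of these 39, 19 were tested with age in females, 5 rose and 4 fell, with a median log2 difference of 0.13, beside 0.01 over all genes and 31.8% called. The 5 that rose were Acnat2, Lgalsl, Syvn1, Derl3 and Nucb1. In males with age none of 19 was called and the median was -0.02, and with HDM201 in males none of 20 was called and the median was 0.23. Of the 6 genes of the set with an element, Hspa5, Creld2 and Dnajc3 rose with age in females, Herpud1 fell, and Calr and Hsp90b1 were not called, while of the 4 without one, Sdf2l1 and Pdia4 rose. Thus genes with and without these letters in the window were found among those that rose.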

How the data were processed

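Whole liver RNA of 29 mice was measured. Per the methods, STAR (2-pass) aligned the reads to mm10 and SAMtools filtered them, and the authors deposited HTSeq counts per gene, as whole numbers without normalization, for 27 mice. The authors made FPKM values with Cufflinks for 29 mice, with empty cells where a gene has no value. Tool versions and whether counting used strand are not given in the sources used here.

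Counts were tested in R 4.3.3 with edgeR 4.0.16, using only the groups of each comparison: filterByExpr (min.count 10, min.total.count 15), TMM scaling, the quasi-likelihood F test and Benjamini-Hochberg values under 0.05. The SE is the absolute log2 fold change over the square root of F. The fits were tested on simulated counts. The p-values set the difference between groups against the variation between mice. Alternatives were RLE scaling, DESeq2 1.42.0 (named in the methods), no filter, a joint fit over all 6 groups, a replicate block, omission of single mice, a threshold of 0.01 and limma 3.58.1 on log2(FPKM + 1), which was chosen after seeing the data and used genes with a mean FPKM above 0.5 and no empty cell.

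The 10 genes and all gene lists were chosen with earlier results of these data known. The rule named all 10 genes, up to 3 called genes with the smallest adjusted p for each pathway list and comparison, and the 5 genes most correlated with the mean z-score of log2(CPM + 1). Hspd1, Hspa9, Hspa8, Trib3 in young mice, single clock genes and genes with an ERSE were named after their values were seen. Gene IDs were matched to GENCODE M21 without their version (55154 of 55421), and promoters are from RefSeq on GRCm38.p6.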

Additional observations from a re-analysis of the deposited data

Results flagged for a closer look

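In each of 60 combinations of gene and group, the gap of the highest or lowest mouse to its nearest neighbour was set against the range of the group (Dixon's 95% limit), which chance passes in about 1 of 20 groups, and 5 passed. Old HDM201 male 1 stood above its group for Hspa5 (1219 CPM, others 413 to 640) and Creld2 (75.0 CPM, others 14.3 to 31.2). Old vehicle female 3 stood below its group for Dnajb9 (46.6 CPM, others 56.7 to 57.8) and above it for Herpud1 (643 CPM, others 339.8 to 372). Old vehicle male 5 stood above its group for Creld2 (33.0 CPM, others 17.0 to 19.2).

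The age difference of Dnajc3 differed between the sexes by an interaction test (0.71 on the log2 scale, adjusted p = 0.0458 by edgeR's quasi-likelihood test), with 0.24 in females and -0.46 in males. All 4 old vehicle females were above all 5 young ones, and 3 of the 4 old vehicle males were below all 4 young ones. The old males were older than the old females by their labels, so sex cannot be told apart from this difference in age.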

How the results depend on the processing

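The 70 log2 differences were refitted in 1280 alternatives, of which none reversed a call, 1198 kept the side of the threshold, 61 lost a call and 21 gained one. With age in females, Hspa5, Sdf2l1, Pdia4 and Creld2 were called in all 16 alternatives each, and the count of 6 went to 4 at a threshold of 0.01, to 5 with no filter, with all 6 groups and with the replicate block (Dnajc3 lost each time), to 5 with limma on FPKM (Herpud1 lost), and to 4 to 6 with each mouse left out. With HDM201 in females, the count of 2 became 0 at a threshold of 0.01, in one fit of all 6 groups, with the replicate block and with limma on FPKM, and 0 to 1 with each mouse left out. With age in males, the count of 0 became 1 (Dnajc3) with all 6 groups. For the interaction of sex and age, the count of 1 became 0 at 0.01 and with the replicate block, 5 with DESeq2, 4 with no filter, and 0 to 5 with each mouse left out. For young females against males, the count of 1 became 0 at 0.01, with the replicate block and with limma on FPKM, 2 with no filter and with all 6 groups, and 0 to 4 with each mouse left out. Counts of 0 for HDM201 in males and for its interaction with sex stayed 0 in all alternatives. The cause of these changes was not tested. On FPKM the median of all genes moved to 0.11 with age in females and 0.10 in males, and age differences on that scale are relative to it. The mice share only a number: the correlation of deviations from group means between same-numbered mice ran from -0.22 to 0.22.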
